A study of Mus musculus with 6 samples.

Results

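The transcripts of 10 genes that mark the enteroendocrine lineage were followed by RNA-seq in 3 adenoma libraries of ApcMin, WT mice and 3 of ApcMin, PCdel mice. The genes were 2 granins (*Chga*, *Chgb*) and 8 peptide hormones (*Gip*, *Cck*, *Sct*, *Gcg*, *Nts*, *Pyy*, *Sst*, *Tac1*). They were chosen by name, and all 10 were found among the 48440 genes of the deposited tables, with 1 entry each in every library. All mice carried the ApcMin allele, a truncating mutation of *Apc* that gives rise to intestinal polyps, on a C57BL/6 background, and were older than 42 days. ApcMin, PCdel mice also carried Defa4-Cre, an IRES-Cre knock-in at the *Defa4* locus that is active in Paneth cells (PCs), and one Rosa26-iDTA allele, from which Cre switches on the diphtheria toxin A subunit. The littermate controls, ApcMin, WT, carried Rosa26-iDTA without Cre. Each library (QC4, QC5 and QC6 for WT; QC3, QC8 and QC10 for PCdel) was made from adenoma tissue as a whole, so it holds epithelium, stroma and nerve fibres together. The labels give the tissue as adenoma polyp and name no segment of the small intestine.

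Enteroendocrine cells are scattered hormone-secreting cells of the gut epithelium that arise from the same crypt stem cells as PCs, goblet cells and tuft cells. They store peptide hormones with granins in dense-core granules and release them when nutrients reach the gut lumen. Which hormone a cell makes depends in part on where it sits. Glucose-dependent insulinotropic peptide (*Gip*), cholecystokinin (*Cck*) and secretin (*Sct*) are known as hormones of the duodenum and jejunum, whereas proglucagon (*Gcg*), neurotensin (*Nts*) and peptide YY (*Pyy*) are known as hormones of the ileum and colon. Somatostatin (*Sst*) and the tachykinin precursor (*Tac1*, source of substance P) are made by endocrine cells and also by neurons of the gut wall.

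To show the regulatory sequence of hormones that were highest in the same library, the 150 bases before the RefSeq transcription start (GRCm38.p6) are given for 5 members, 5′ to 3′ on the gene's strand. *Gip* and *Cck* were highest in QC6, *Gcg* and *Pyy* in QC10, and *Chga*, a granin that marks endocrine cells, is shown beside them. Capitals mark matches on either strand to TGACG (part of the cyclic AMP response element, CRE), TATAAA (the box bound by the TATA-binding protein), AGATAA (the kind of site that GATA factors bind), and either CAGCTG or else the sequence CAGATG (E-boxes, the kind of site that NEUROD1 and NEUROG3 bind).
*Gip* (chr11:96024395-96024544, + strand): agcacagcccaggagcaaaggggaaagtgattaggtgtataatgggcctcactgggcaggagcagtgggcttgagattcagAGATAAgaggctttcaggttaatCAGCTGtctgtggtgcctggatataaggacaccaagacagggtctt
*Cck* (chr9:121495695-121495844, - strand): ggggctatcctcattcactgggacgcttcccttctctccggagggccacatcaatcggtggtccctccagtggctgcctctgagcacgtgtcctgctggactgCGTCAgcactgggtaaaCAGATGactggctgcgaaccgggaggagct
*Gcg* (chr2:62483654-62483803, - strand): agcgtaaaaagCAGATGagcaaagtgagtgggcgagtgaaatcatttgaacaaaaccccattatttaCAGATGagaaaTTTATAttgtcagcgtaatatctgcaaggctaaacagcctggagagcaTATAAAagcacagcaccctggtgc
*Pyy* (chr11:102107833-102107982, - strand): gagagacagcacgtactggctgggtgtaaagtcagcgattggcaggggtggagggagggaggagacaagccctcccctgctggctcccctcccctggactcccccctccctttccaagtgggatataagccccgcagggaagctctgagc
*Chga* (chr12:102554791-102554940, + strand): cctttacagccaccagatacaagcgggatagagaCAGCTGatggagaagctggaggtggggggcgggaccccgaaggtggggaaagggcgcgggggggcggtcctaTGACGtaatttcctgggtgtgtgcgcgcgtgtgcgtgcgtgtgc

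The full CRE, TGACGTCA, was found in 2 members, and 24 bases around it are shown with the element in capitals.
*Chgb* (chr2:132781562-132781585, + strand): ctgctccgTGACGTCAgggctgag
*Sst* (chr16:23890877-23890900, - strand): tccttggcTGACGTCAgagagaga

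All 10 members were matched to a RefSeq start. The windows of 4 members, *Chgb* and *Sst* among them, overlap an annotated exon and are not shown whole. The CRE lay at base -72 of *Chgb* and at base -48 of *Sst*, counted from the RefSeq start, which for *Chgb* is inside the gene model of the deposited tables. It was present in 1.36% of the 32851 windows of this length before RefSeq starts. TGACG, which every full CRE contains, was present in 5 members (*Cck*, *Chga*, *Chgb*, *Sst*, *Tac1*) and in 13.3% of all windows. TATAAA was present in 2 members (*Gcg*, *Sct*) and in 7.57% of all windows. AGATAA was present in 3 members (*Gip*, *Nts*, *Tac1*) and in 5.65%. CAGCTG was present in 3 members (*Chga*, *Gip*, *Sct*) and in 8.39%, and CAGATG in 2 members (*Cck*, *Gcg*) and in 8.81%. Of the 6 members highest in QC6, TGACG was present in 4 (*Cck*, *Chga*, *Chgb*, *Sst*) and CAGCTG in 3 (*Chga*, *Gip*, *Sct*). Of the 4 members highest in QC10, AGATAA was present in 2 (*Nts*, *Tac1*), TGACG in 1 (*Tac1*) and CAGCTG in 0. Membership of these groups rests on the highest library alone, and *Sct* was at 20.4 FPKM in QC6 and 20.1 FPKM in QC10. Among the members highest in QC6, AGATAA was present in 1 (*Gip*). The full CRE was present in 2 members highest in QC6 and in 0 highest in QC10. TATAAA was present in 1 member of each group (*Sct* and *Gcg*). The same was true of the sequence CAGATG (*Cck* and *Gcg*). These matches are a description of the letters only.

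The authors deposited FPKM, which counts sequenced fragments per length of transcript and per size of library, and no read counts. The aligned sequence behind a library came to between 5.407 and 5.876 gigabases. Library QC6 (WT) deviated most from the fit (array quality weight 0.237, against 0.634 to 3.09 in the others), and its median log2 ratio to the mean of all libraries was -0.13, against 0.00142 to 0.0335 in the others. The summed FPKM of 8 epithelial genes was also lowest in QC6, at 5652 against 6225 to 7940 elsewhere. Of these genes, *Epcam*, *Cdh1*, *Krt8*, *Krt18* and *Krt19* were lowest in QC6, and *Cldn7* was lower only in QC3. *Vil1* (466.0 FPKM in QC6) and *Krt20* (1092 FPKM in QC6) went the other way and were exceeded only in QC10. In the check of the targeted lineage, the PC gene *Lyz1* was at 950.3 to 1148 FPKM in the PCdel libraries and at 1672 to 2281 FPKM in the WT libraries. Of 8 PC genes listed, 3 (*Lyz1*, *Defa21*, *Defa22*) had every PCdel library below every WT library, against 1.54% of all genes tested. With limma, 0 of the 8 had an adjusted p under 0.05 (0.979 for *Lyz1*). The mean of *Defa21* was 240.5 FPKM in WT and 27.9 FPKM in PCdel adenomas, and that of *Defa22* was 231.9 and 31.2 FPKM. The other PC genes overlapped, among them *Ang4* at 152.9 to 1108 FPKM in WT and 62.3 to 1173 FPKM in PCdel libraries. Of these, *Mptx2* and *Itln1* had log2 fold changes of -1.04 and -0.62 (unadjusted p of 0.0380 and 0.0417 from limma). The median log2 fold change of the 8 PC genes was -0.78. Since these are bulk samples, fewer endocrine cells and less RNA per cell cannot be told apart.

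All 10 members were readily detected, and *Gip* had the highest mean level. Over the 6 libraries the mean level was 33.0 FPKM for *Gip*, 21.6 for *Chgb*, 19.9 for *Sst*, 17.0 for *Chga*, 16.3 for *Sct*, 13.2 for *Cck*, 8.88 for *Nts*, 8.73 for *Gcg*, 8.0 for *Tac1* and 6.67 for *Pyy*. FPKM is scaled for transcript length, so these levels can be compared between genes. The highest mean was 4.95 times the lowest. The ranges of each pair of neighbours in this order overlapped. *Gip* was above *Chgb* in 5 of 6 libraries and *Cck* above *Nts* in 5 of 6, whereas *Sst* was above *Chga* in 3 of 6 and *Nts* above *Gcg* in 2 of 6. The order in the middle and at the low end was therefore not beyond the spread between libraries. The level of *Gip* was above that of 80.4% of the 14240 genes tested, those averaging 1 FPKM or more, and the level of *Pyy* above that of 38.4%.

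**Figure D1:**
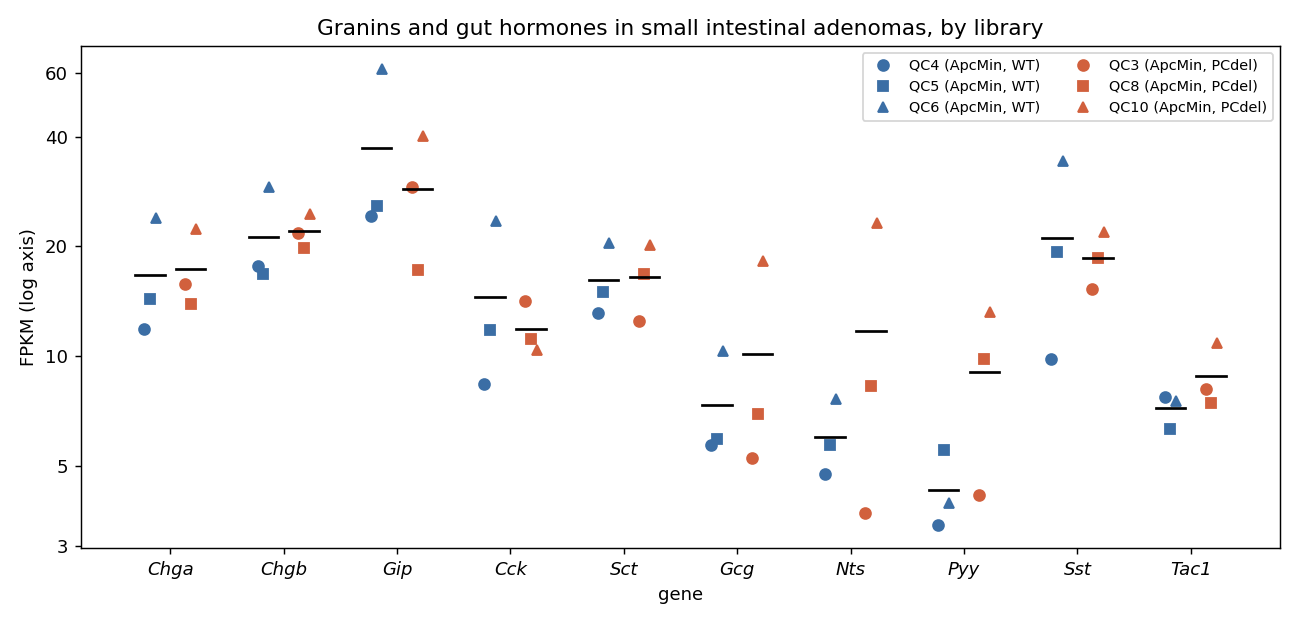
FPKM (log axis) of the 2 granins and 8 hormones in each of the 6 libraries, with ApcMin, WT in blue and ApcMin, PCdel in orange, 1 symbol per library and the group mean as a black bar. QC6 and QC10 (triangles) hold the highest value of every gene, and the 2 genotypes overlap in all 10 genes.

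The granins, acidic proteins that help to form the dense-core granule, were of similar level in both genotypes. *Chga* (ENSMUSG00000021194.5; GRCm38 chr12:102554969-102565027) was expressed at 11.8, 14.3 and 24.0 FPKM in WT libraries QC4, QC5 and QC6 and at 15.8, 13.9 and 22.3 FPKM in PCdel libraries QC3, QC8 and QC10. Its mean was 16.7 ± 6.41 FPKM (SD, n = 3 libraries) in WT adenomas and 17.3 ± 4.38 FPKM (SD, n = 3) in PCdel adenomas. QC6 and QC10 were high and the other 4 libraries lay close together, so that each group held 1 high library. *Chgb* (ENSMUSG00000027350.8; chr2:132781278-132795079) was expressed at 17.7, 16.8 and 29.2 FPKM in QC4, QC5 and QC6 and at 21.7, 19.8 and 24.5 FPKM in QC3, QC8 and QC10. The same 2 libraries were highest for *Chgb*, which exceeded *Chga* in each library by a ratio of 1.10 to 1.49. Without QC6, the log2 fold change of *Chgb* was 0.33, with an unadjusted p of 0.0294 and an adjusted p of 0.845 from limma, against 0.09 with all libraries.

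Among the hormones of the proximal gut, the highest values were in WT library QC6. *Gip* (ENSMUSG00000014351.12; chr11:96024545-96030831), the incretin of K cells, was expressed at 24.3, 25.8 and 61.5 FPKM in QC4, QC5 and QC6 and at 29.1, 17.2 and 40.1 FPKM in QC3, QC8 and QC10. The lowest and the second highest value were both in PCdel adenomas. *Cck* (ENSMUSG00000032532.6; chr9:121489825-121495689), which stimulates gallbladder contraction and pancreatic enzyme release, was expressed at 8.38, 11.8 and 23.5 FPKM in the WT libraries. In the PCdel libraries it was expressed at 14.2, 11.1 and 10.4 FPKM. QC6 alone was high, and in QC10 *Cck* was not raised with the granins. *Sct* (ENSMUSG00000038580.13; chr7:141278330-141279133), which stimulates bicarbonate secretion, was expressed at 13.1, 15.0 and 20.4 FPKM in the WT libraries and at 12.4, 16.8 and 20.1 FPKM in the PCdel libraries. The range of *Sct* in one genotype was nearly the range in the other.

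Hormones of the distal gut had their highest values in PCdel library QC10. *Gcg* (ENSMUSG00000000394.15; chr2:62474530-62483650), the precursor of the L cell peptides GLP-1 and GLP-2, was expressed at 5.71, 5.92 and 10.3 FPKM in QC4, QC5 and QC6. Its values were 5.24, 6.94 and 18.2 FPKM in QC3, QC8 and QC10. *Nts* (ENSMUSG00000019890.3; chr10:102481760-102490418), the hormone of N cells, was expressed at 4.74, 5.68 and 7.60 FPKM in the WT libraries and at 3.70, 8.29 and 23.3 FPKM in the PCdel libraries. For both genes QC10 was far above the other libraries and QC3 was the lowest of the 6, so the PCdel group spanned the whole range. *Pyy* (ENSMUSG00000017311.15; chr11:102106676-102107832), an L cell hormone that slows gut motility, was expressed at 3.43, 5.51 and 3.94 FPKM in the WT libraries. In the PCdel libraries it was expressed at 4.14, 9.80 and 13.2 FPKM. QC8 and QC10 were above every WT library, and QC3 lay within the WT range.

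*Sst* and *Tac1* differed in how far they varied. *Sst* (ENSMUSG00000004366.3; chr16:23889581-23890844), the inhibitory hormone of D cells, was expressed at 9.83, 19.4 and 34.3 FPKM in the WT libraries and at 15.3, 18.6 and 21.9 FPKM in the PCdel libraries. The WT libraries enclosed all PCdel libraries. *Tac1* (ENSMUSG00000061762.12; chr6:7554879-7565834) was expressed at 7.71, 6.32 and 7.54 FPKM in the WT libraries and at 8.14, 7.44 and 10.8 FPKM in the PCdel libraries. Its highest library was 1.72 times its lowest, against 6.28 times for *Nts*. The narrowest range was that of *Sct*, with the highest library at 1.64 times the lowest, and *Pyy* came next to *Nts* with 3.85 times.

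As a group, the hormone genes varied more between libraries of one genotype than most genes did. The SD within groups on the scale of log2(FPKM + 1) had a median of 0.55 over the 10 members and of 0.17 over the 14240 genes tested. *Nts* had an SD of 0.87, above that of 98.0% of the genes tested. *Tac1*, with 0.21, was above 60.8% of them. QC6 held the highest value of 6 members and QC10 that of the other 4, while neither held a lowest value.

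None of the 10 members passed the test between genotypes. With limma on log2(FPKM + 1), 0 members had an adjusted p under 0.05 (0.014% of all genes tested did, 2 of 14240) and 0 had an unadjusted p under 0.05 (3.38% of all genes did). In 0 of the members did the groups fail to overlap, against 7.54% of all genes (6% with every PCdel library above every WT library and 1.54% with every one below). The median log2 fold change, PCdel minus WT, was 0.09 over the members and 0.04 over all genes tested, with 7 members above 0 and 3 below. Each member had a limma adjusted p of 1.0.

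*Pyy* had the largest difference. Its mean was 9.05 ± 4.58 FPKM (SD, n = 3) in PCdel adenomas and 4.29 ± 1.09 FPKM (SD, n = 3) in WT adenomas. The log2 fold change was 0.82 (standard error 0.37, 95% interval -0.07 to 1.71, limma adjusted p = 1.0), with p = 0.2 in an exact permutation test (two-sided), where 0.1 is the smallest value that 3 libraries against 3 allow. *Nts* had a log2 fold change of 0.56 with an interval of -0.76 to 1.88, and *Gcg* one of 0.29 with an interval of -0.75 to 1.33. Without QC10 these came to -0.06 for *Nts* and -0.20 for *Gcg*, and *Pyy* to 0.51. Without QC3 the log2 fold change of *Nts* rose to 1.12 and that of *Pyy* to 1.25, with unadjusted p of 0.0372 and 0.00134 and adjusted p of 1.0 and 0.795 from limma.

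The other members had smaller differences. The log2 fold change was 0.25 for *Tac1* (95% interval -0.12 to 0.62), 0.08 for *Chga* (-0.59 to 0.75), 0.09 for *Chgb* (-0.43 to 0.61) and 0.02 for *Sct* (-0.50 to 0.54). It was -0.30 for *Gip* (-1.33 to 0.72), -0.16 for *Cck* (-0.98 to 0.65) and -0.03 for *Sst* (-0.998 to 0.94). The intervals of *Gip*, *Gcg*, *Nts* and *Pyy* each reached past a doubling or a halving, so that 3 libraries per group could not separate such a change from none. Without QC6, *Gip* had a log2 fold change of 0.12, *Cck* of 0.22 and *Sst* of 0.39.

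**Figure D2:**
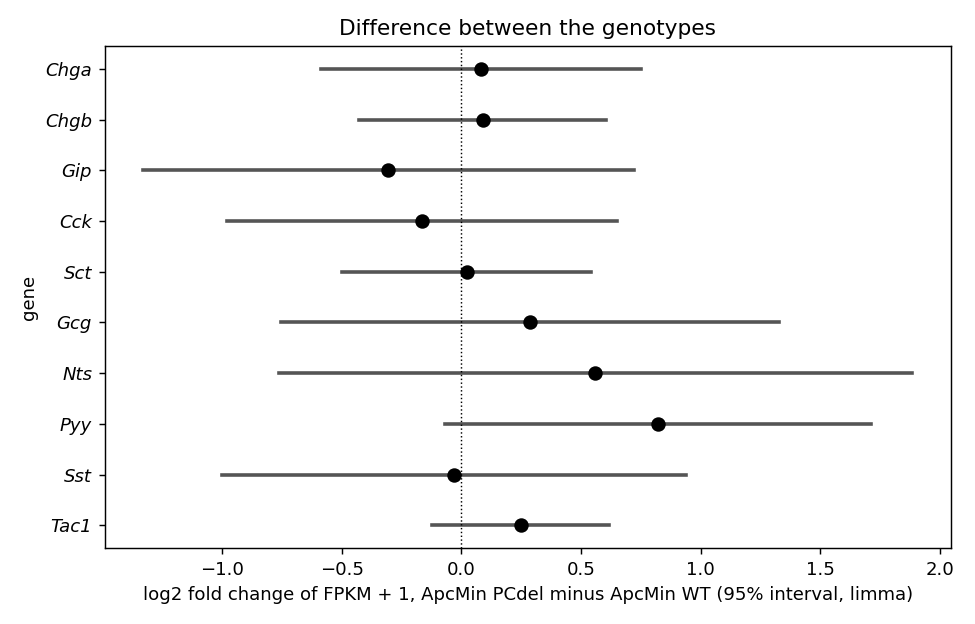
Log2 fold change of FPKM + 1 (ApcMin, PCdel minus ApcMin, WT) of each gene as a point, with its 95% interval from limma as a line (n = 3 libraries per group). The line of every gene crosses 0, and that of *Pyy* comes nearest to clearing it.

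Each member was also expressed as a percent of the summed FPKM of the 10. Between libraries this share differed most for *Pyy* (4.25-fold) and *Nts* (3.98-fold). It differed by 2.09-fold to 2.21-fold for *Gip*, *Tac1*, *Cck* and *Gcg*, and by less for the other members. The sum itself was 106.7, 126.5 and 222.1 FPKM in QC4, QC5 and QC6 and 129.8, 129.9 and 204.9 FPKM in QC3, QC8 and QC10. It averaged 151.8 ± 61.7 FPKM (SD, n = 3) in WT adenomas and 154.9 ± 43.3 FPKM (SD, n = 3) in PCdel adenomas. A member's share of this sum is a measure within a library and does not depend on the library's scaling. *Chga* took between 10.7% and 12.2% of the sum in each library, the narrowest span of the 10, although the sum itself differed 2.08-fold. *Chgb* took between 12.0% and 16.7%.

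*Gip* was the largest share in 5 of the 6 libraries. It took 22.8%, 20.4% and 27.7% in the WT libraries and 22.4%, 13.2% and 19.6% in the PCdel libraries QC3, QC8 and QC10. In QC8, *Chgb* (15.2%) and *Sst* (14.3%) exceeded it. The share of *Pyy* was 3.21%, 4.36% and 1.77% in the WT libraries and 3.19%, 7.54% and 6.45% in the PCdel libraries. *Nts* took 4.44%, 4.49% and 3.42% in the WT libraries and 2.85%, 6.38% and 11.3% in the PCdel libraries. *Gcg* took 5.35%, 4.68% and 4.65% in the WT libraries and 4.04%, 5.35% and 8.91% in the PCdel libraries. Its share in QC8 was thus within the WT range, unlike those of *Pyy* and *Nts*. *Sct* kept between 9.17% and 13.0% throughout.

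Grouped as trios by their known region, *Gcg*, *Nts* and *Pyy* together made up 13.0%, 13.5% and 9.84% of the sum in QC4, QC5 and QC6. They made up 10.1%, 19.3% and 26.7% in QC3, QC8 and QC10. *Gip*, *Cck* and *Sct* made up 42.9%, 41.6% and 47.4% in the WT libraries and 43.0%, 34.7% and 34.5% in the PCdel libraries. The ratio of the proximal to the distal trio was 3.30, 3.08 and 4.82 in the WT libraries and 4.26, 1.80 and 1.29 in the PCdel libraries. QC8 and QC10 were lower than all other libraries in this ratio, and QC3 lay between WT libraries QC4 and QC6. The groups therefore overlapped.

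**Figure D3:**
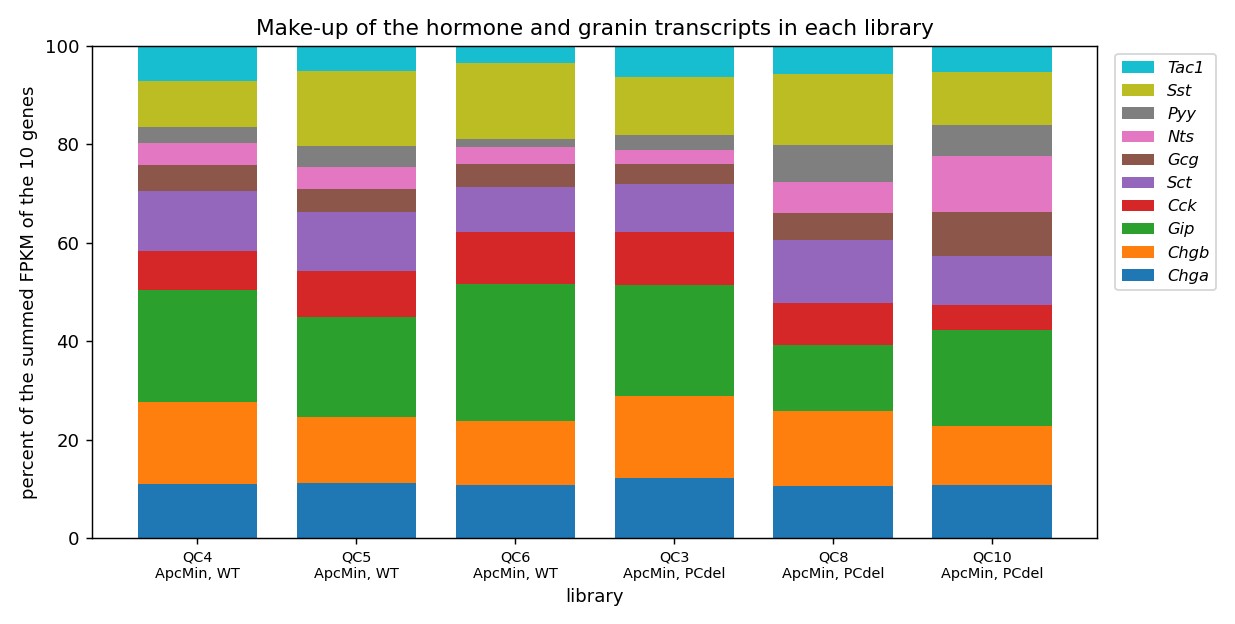
Share of each gene in the summed FPKM of the 10 genes (percent, stacked bars, 1 bar per library). The *Chga* band keeps nearly the same height (10.7% to 12.2%), while the *Gcg*, *Nts* and *Pyy* bands together are widest in QC8 and QC10 (19.3% and 26.7%).

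The libraries with the larger distal share, QC8 and QC10, also had the highest values of 6 of the 11 distal small intestine genes listed (*Fabp6*, *Slc10a2*, *Slc51a*, *Slc51b*, *Nr1h4*, *Fgf15*), most of which serve bile acid handling in the ileum. *Fabp6*, the ileal bile acid binding protein, was at 8.22, 23.6 and 2.39 FPKM in QC4, QC5 and QC6 and at 6.18, 1477 and 630.2 FPKM in QC3, QC8 and QC10. *Slc10a2*, the ileal bile acid transporter, was at 5.14, 6.41 and 0.905 FPKM in the WT libraries and at 1.99, 36.3 and 13.0 FPKM in the PCdel libraries. *Fgf15*, the bile acid induced hormone of the ileum, was at 12.7 FPKM in QC8 and 1.97 FPKM in QC10 and below 1 FPKM elsewhere, with 0.739 FPKM in QC5 as the next highest value. The other 5 genes on this list (*Osr2*, *Ccl25*, *Guca2a*, *Cubn*, *Muc13*) were not highest in both QC8 and QC10. *Osr2* (30.7 FPKM), *Guca2a* (678 FPKM) and *Muc13* (576.4 FPKM) were highest in QC10 but not raised in QC8. *Ccl25* was lowest in QC8 (73.6 FPKM), *Cubn* was highest in QC6 (10.6 FPKM), and *Guca2a* was at 361.2 FPKM in QC8, below QC4 and QC5 with 417.2 and 490.0 FPKM. Whether each gene on the list, *Ccl25* included, marks the distal gut was not tested. Over all 11 genes, the summed FPKM was 1041 to 1134 in the WT libraries, 871.5 in QC3, 2720 in QC8 and 2327 in QC10. Of these 11 genes 0 passed the adjusted threshold, 0 had non-overlapping groups and the median log2 fold change was 0.50. Over the 10 proximal genes, the summed FPKM was 1698 to 4402 in the WT libraries, with the highest value in QC6. It was 2466, 1424 and 1598 in QC3, QC8 and QC10, again with 0 genes called (median log2 fold change -0.21). Most of this sum was *Fabp1*, at 3626 FPKM in QC6. *Gata4*, *Lct*, *Adh6a* and *Creb3l3* were also highest in QC6. In contrast, *Pdx1*, *Cybrd1* and *Slc40a1* were highest in QC5, *Onecut2* in QC8 and *Bcl2l15* in QC10. The part of the segment sampled in the hormone differences was not tested. PCdel library QC3, which was low in the ileal genes, had *Pyy* within the WT range and *Nts* and *Gcg* below it.

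**Figure D4:**
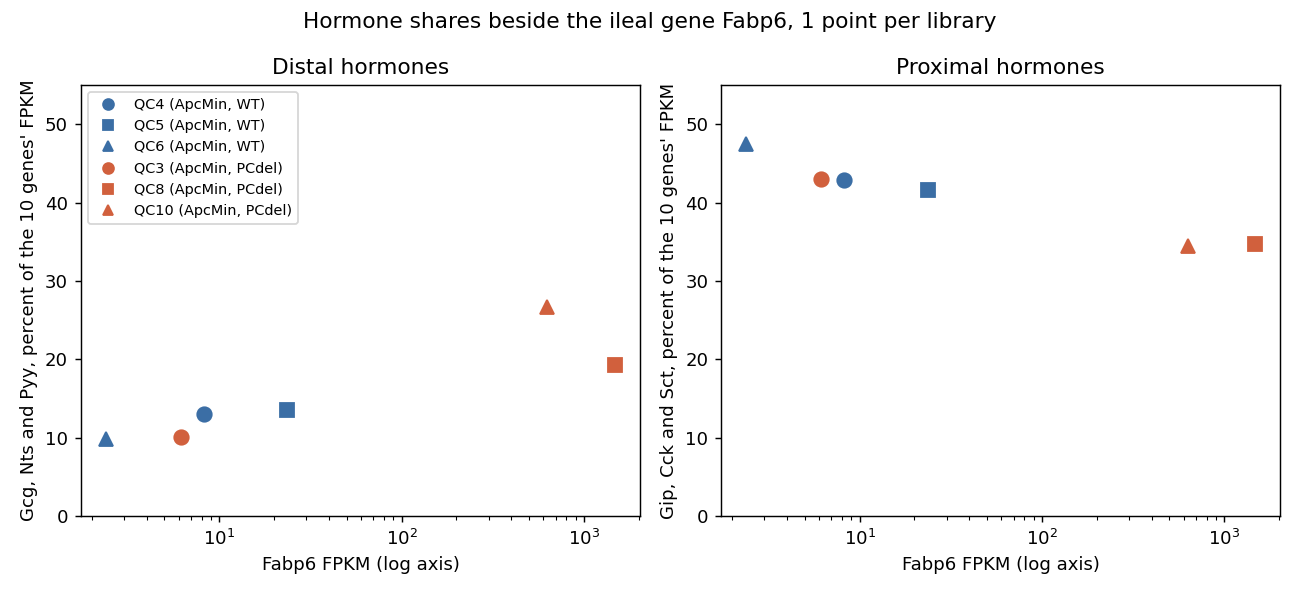
Share of *Gcg*, *Nts* and *Pyy* (left) and of *Gip*, *Cck* and *Sct* (right) in the summed FPKM of the 10 genes against the FPKM of the ileal gene *Fabp6* (log axis), 1 point per library. QC8 and QC10, with *Fabp6* at 1477 and 630.2 FPKM, have the highest distal and the lowest proximal shares, and PCdel library QC3 lies among the WT libraries.

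Other genes of the endocrine programme were mostly low, and 0 of them passed the adjusted threshold. Of 13 further gut hormones and peptides, 12 were in the tables and 5 reached a mean FPKM of 1. *Ghrl*, the ghrelin precursor, was the most abundant at 7.84, 6.48 and 22.6 FPKM in the WT libraries and 11.8, 14.3 and 9.15 FPKM in the PCdel libraries. It was highest in QC6, as the proximal hormones were, and in QC10 it was the lowest of the PCdel libraries but above QC4 and QC5. *Penk*, the enkephalin precursor, was at 3.02 ± 0.46 FPKM in WT and 3.16 ± 0.29 FPKM in PCdel adenomas (SD, n = 3). *Adm*, the adrenomedullin precursor, was at 2.94 to 3.04 FPKM in the WT libraries and 3.42 to 3.62 FPKM in the PCdel libraries, without overlap (log2 fold change 0.17). *Insl5*, *Ppy* and *Nppb* were listed at 0 in all libraries.

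Of the 16 genes of granules and prohormone processing, 9 were tested, the granins included, and the median log2 fold change was 0.09. *Pcsk1*, the convertase that cuts prohormones in K and L cells, was at 1.97 ± 0.86 FPKM in WT and 2.09 ± 0.41 FPKM in PCdel adenomas (SD, n = 3). *Cpe*, which trims the cut peptides, was at 14.3 ± 4.38 and 18.8 ± 4.22 FPKM, and *Pam*, which amidates them, at 24.8 ± 5.17 and 26.5 ± 4.04 FPKM, respectively. *Scg2*, a further member of the granin family, was at 2.82 ± 1.27 and 2.83 ± 0.44 FPKM. *Ptprn2*, a membrane protein of the granule, was at 4.92 FPKM in both genotypes. The groups overlapped in all 9 genes.

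Genes of serotonin-producing enterochromaffin cells were described by a list of 8, of which 6 were tested (median log2 fold change -0.06). *Tph1*, the rate-limiting enzyme of serotonin synthesis in the gut, was at 5.56, 7.54 and 8.16 FPKM in the WT libraries and 8.55, 7.14 and 3.12 FPKM in the PCdel libraries. It was lowest in QC10, where the distal hormones were highest. *Trpa1*, an irritant-sensing channel of these cells, was at 2.77, 1.90 and 2.72 FPKM in the WT libraries and at 5.79, 3.73 and 3.21 FPKM in the PCdel libraries. Its groups did not overlap (log2 fold change 0.58, standard error 0.21, unadjusted p = 0.0279 and adjusted p = 1.0 from limma). *Ddc*, *Gch1* and *Slc18a1* had overlapping groups.

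Of the 19 transcription factors of the lineage, only 3 (*Sox4*, *Foxa2*, *Hhex*), which other epithelial cells also express, reached a mean FPKM of 1. *Neurog3*, the factor that commits cells to the endocrine fate, was at 0.326, 0.583 and 0.905 FPKM in the WT libraries and 0.729, 0.638 and 0.791 FPKM in the PCdel libraries, which overlapped. Of the 16 factors under a mean FPKM of 1, which were not tested, the groups overlapped in 13, and 3 had every PCdel library above every WT library. These were *Rfx6* (0.0689 to 0.128 against 0.164 to 0.323 FPKM), *Insm1* (0.324 to 0.521 against 0.521 to 0.672 FPKM) and *Mnx1* (0.744 to 0.936 against 1.008 to 1.106 FPKM). Among all 12968 genes above 0 with a mean under 1 FPKM, 4.54% were higher in this way and 2.16% lower.

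Of the 22 receptors for the hormones of the members, 3 were tested and *Cckbr*, *Sctr* and *Npy5r* were listed at 0 in all libraries. *Glp2r*, the receptor of the *Gcg* product GLP-2 on stromal and nerve cells, was at 1.78, 1.75 and 2.08 FPKM in the WT libraries and at 2.87, 2.70 and 2.70 FPKM in the PCdel libraries. The groups did not overlap (log2 fold change 0.39, standard error 0.10, unadjusted p = 0.00740 and adjusted p = 1.0 from limma). *Tacr1*, the substance P receptor, was at 1.04 to 1.08 FPKM in the WT libraries and 1.16 to 1.59 FPKM in the PCdel libraries (log2 fold change 0.21, unadjusted p = 0.109 from limma). *Sort1*, a sorting receptor that also binds neurotensin, was at 32.0 ± 6.38 and 34.1 ± 2.47 FPKM (SD, n = 3).

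Of the 12 nutrient sensors, 4 were tested (median log2 fold change 0.15) and *Lpar5*, a receptor of lysophosphatidic acid, had non-overlapping groups at 14.3 to 16.6 and 16.7 to 19.0 FPKM. *Slc5a1*, the sodium-glucose transporter, was at 249.6 ± 153.1 and 235.3 ± 69.4 FPKM, highest in QC6. *Ffar4*, a receptor of long-chain fatty acids, was at 6.21 ± 2.40 FPKM in WT and 8.07 ± 2.73 FPKM in PCdel adenomas (SD, n = 3). Of the 8 peptidases that can cleave gut hormones, 7 were tested, none had separate groups and the median log2 fold change was 0.00. The most abundant were *Anpep* (525.8 FPKM in WT and 564.1 in PCdel adenomas), *Ace* (197.3 and 162.8 FPKM) and *Enpep* (135.5 and 140.9 FPKM). *Dpp4*, which inactivates GLP-1 and GIP, was at 51.0, 42.5 and 103.9 FPKM in the WT libraries and 55.8, 51.0 and 80.2 FPKM in the PCdel libraries, highest in QC6 and QC10 as the granins were. This order was not particular to *Dpp4* or to endocrine genes. *Anpep* (730.7 and 733.6 FPKM), *Enpep* (209.7 and 210.6 FPKM) and *Ace* (371.1 and 169.8 FPKM) were also highest in QC6 and QC10. So were the epithelial genes *Vil1* and *Krt20*, whereas *Mme*, *Ece1* and *Prep* were not. Across all lists, 91 genes that are neither members nor PC markers were tested, of which 2 (*Trpa1*, *Glp2r*; 2.2%) had an unadjusted p under 0.05 and 5 (5.49%) had non-overlapping groups, all 5 higher in PCdel adenomas. Over all genes tested these shares were 3.38% and 7.54%, with 6% higher and 1.54% lower, so the lists lay near or under the share of all genes.

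Other tissues and cell types, some of which make the same peptides, were followed by their markers. The 14 pancreas markers were at 0 in all libraries for 11 genes, *Ins1*, *Ins2* and *Ppy* among them. The others on this list were *Iapp* and *Ctrb1*, with means of 0.376 and 0.229 FPKM, and *Cela1*, which alone was high at 45.7 to 100.4 FPKM. The summed FPKM of 14 enteric neuron markers was 16.2 to 28.2 in the WT libraries and 16.9 to 25.2 in the PCdel libraries, with 0 of 7 tested genes called. *Vip*, a peptide of enteric neurons, was at 3.07, 9.96 and 7.68 FPKM in the WT libraries and 9.63, 8.02 and 3.86 FPKM in the PCdel libraries. Its lowest PCdel library was QC10, where *Tac1* was highest. The 8 smooth muscle genes summed to 223.9 to 362.9 FPKM in the WT libraries and to 325.6 to 466.2 FPKM in the PCdel libraries. The 12 goblet and tuft cell genes summed to 8299 to 10401 FPKM and to 8661 to 10020 FPKM, respectively. The part of neurons and muscle in the values of *Tac1* and *Sst* was not tested.

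Over the 6 libraries, the profile of *Chga* was compared with that of all other tested genes, as a description. The 5 non-member genes with the highest Pearson's r on log2(FPKM + 1) were *Atg4d* (0.99), *Aspa* (0.99), *Dlg3* (0.99), *Dnaaf1* (0.99) and *Serinc3* (0.99). They were picked as the highest of all genes tested, share the libraries with *Chga* and carry no test. Without QC6 and QC10, the 2 libraries farthest from the median of *Chga*, their r lay between 0.92 and 0.96 over 4 libraries. Among the other 9 members, r with *Chga* was highest for *Chgb* (0.92) and lowest for *Pyy* (0.28). Without the same 2 libraries this order did not hold: r was 0.62 for *Chgb* and 0.22 for *Pyy*, *Cck* had the highest value (0.9995, against 0.68 with all libraries), and *Gcg* (-0.23) and *Nts* (-0.20) had the lowest.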

How the data were processed

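RNA of adenomas was prepared with the TruSeq RNA kit and sequenced on a HiSeq2500 (3 libraries per genotype). How many mice or adenomas went into each library is not stated in the methods. The methods name CLC Genomics Workbench 7 for alignment and MatLab for a normalization whose settings are not given in the sources used here. The authors deposited FPKM (scaled for gene length and library size), TPM (scaled to a sum of 1000000) and the unscaled mean read coverage of each gene. Coverage served only for depth, taken as its most frequent ratio to FPKM. Read numbers were not derived, so no counting intervals or detection floors are given. Gene positions are in GRCm38; each of the 10 members overlapped the gene of its name in GENCODE M21, and 0 overlapped another gene. Of their 31-mers, 0% were shared with other genes, except 0.996% in *Chga*.

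FPKM of separate entries of a gene were summed. Genotypes were compared with limma 3.58.1 in R 4.3.3 (eBayes with trend) on log2(FPKM + 1), which understates changes of low genes, over the 14240 genes averaging 1 FPKM or more, with Benjamini-Hochberg adjustment. Exact two-sided permutation tests (SciPy 1.17.1) used FPKM. In simulated data of 14240 genes with the real means and spread, limma called 88% of 200 genes that had been shifted by a log2 value of 2. It also called 6 unchanged genes. The noise was drawn separately for each gene, so this share need not hold for the real libraries. There, *Defa21* and *Defa22*, with log2 fold changes of -2.98 and -2.77, each had an adjusted p of 0.309 from limma. The members and the 15 gene lists were chosen with earlier results of these data known. The rule for named genes took the 10 members, the 5 genes most like *Chga* and, of each list, non-overlapping genes (up to 4) and the 3 with the highest mean. Of the genes this rule gave, some that mark other cell types or gut regions are reported only within the sums and counts of their lists. Further genes (*Pcsk1*, *Scg2*, *Tph1*, *Neurog3*, *Rfx6*, *Insm1*, *Mnx1*, *Dpp4*, *Iapp*, *Ctrb1*, the distal genes other than *Fabp6*, *Muc13* and *Guca2a*, and those listed at 0) were chosen after their values were seen. So were *Mptx2*, *Mme*, *Ece1* and *Prep*. The same holds for the proximal genes other than *Fabp1*, *Creb3l3* and *Adh6a*, and the epithelial genes other than *Krt8*, *Krt19* and *Krt20*.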

Additional observations from a re-analysis of the deposited data

How the results depend on the processing

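No paired analysis was possible because the library numbers do not link the genotypes. The 14 alternatives per member comprised TPM, all genes without a filter, genes averaging 5 FPKM or more, a pseudocount of 0.1, quantile normalization, median centring, eBayes without trend, array quality weights and each library left out. No member passed the adjusted threshold under any of them. The unadjusted p of a member was under 0.05 for *Pyy* with TPM (adjusted p = 0.959 from limma), for *Chgb* without QC6, and for both *Pyy* and *Nts* without QC3. *Pyy* (0.51 to 1.25) and *Tac1* (0.11 to 0.35) kept their direction. The log2 fold change changed sign for *Cck* (0.13) and *Sst* (0.086) with array quality weights, for *Sst* (0.031) with TPM, and for *Sct* with quantile normalization (-0.026) and median centring (-0.026). With a library left out it ranged from -0.12 to 0.36 for *Chga*, -0.048 to 0.33 for *Chgb*, -0.47 to 0.22 for *Cck*, -0.20 to 0.62 for *Gcg*, -0.57 to 0.12 for *Gip*, -0.13 to 0.20 for *Sct*, -0.064 to 1.12 for *Nts* and -0.47 to 0.39 for *Sst*. The cause was not tested.

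Genes past the adjusted threshold numbered 2, 1 without the filter, 1 with median centring and 1 to 5 with a library left out (5 without QC4). Unadjusted, 481 genes became 976 without the filter (more genes tested), 260 at a mean FPKM of 5 (fewer tested), 1270 with array quality weights and 358 to 820 with a library left out (820 without QC6). Over the 8 hormones alone, by construction larger, the mean share of *Gip* was 31.6% in WT and 24.9% in PCdel adenomas, against 23.6% and 18.4% over all 10 genes. That of *Gcg*, *Nts* and *Pyy* in WT adenomas was 16.3%, against 12.1%. Shares taken from FPKM summed over a group's libraries moved by less than the SD between libraries. Among the list genes 0 were called, and 0 to 1 with a library left out (*Defa22*, without QC4). Unadjusted, 7 of 99 (7.07%) were under 0.05, against 3.38% of all genes, and 2 of 91 (2.2%) without the PC list.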
